A study of Homo sapiens with 6 samples.

Results

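The DENN domain genes considered here were DENND1A, DENND1B, DENND2D, DENND3, DENND4A, DENND4B, DENND4C, DENND5A, DENND5B and DENND6A. They were taken as a list of 10 among 19775 genes with a single-gene probe set, and every probe set annotated to one of them was followed on its own, which gave 25 of 54613 probe sets. The list was chosen by name as a family, with the values of the comparison of anti-miR-21 against mock, in particular the opposite changes of single probe sets, already known. Changes of its members in that comparison are therefore given as a description, with calls named only to place them on the scale of the whole array.

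SK-Hep1 is an established human cell line that was derived from an adenocarcinoma of the liver. The 3 anti-miR-21 samples came from cells transfected with 20 nM of anti-miR-21, an oligonucleotide against miR-21, using a lipid reagent, and the 3 mock samples from cells that received the mock treatment (PBS) without it. All cells were plated 24 hours before transfection and collected 16 hours after it, and each sample was hybridised to 1 array. The labels give total RNA, although the collection protocol cites an Argonaute immunoprecipitation, so that which fraction reached the arrays is unclear. There was no group with a control oligonucleotide. The replicates are labelled biological, but nothing says that they were separate cultures, so p values then reflect only the scatter of these samples, which may be technical.

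The DENND proteins are known as guanine nucleotide exchange factors. They load Rab GTPases with GTP on a given membrane, after which the Rab recruits effectors that move, tether or sort vesicles. Subfamilies are known for different Rabs, such as RAB35 for DENND1, RAB9 for DENND2, RAB12 for DENND3, RAB10 for DENND4, RAB39 for DENND5 and RAB14 for DENND6. A microRNA acts by pairing its seed with messenger RNAs, which are then destabilised or translated less. The main mature strand of miR-21 is shown because the treatment is named for it; the sequence of the oligonucleotide itself is not given in the labels. The capitals mark the seed, bases 2 to 8. It is given as RNA from 5′ to 3′, from RefSeq (GRCh38.p14, plus strand, chr17:59841273-59841294).
hsa-miR-21-5p: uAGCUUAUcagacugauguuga

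The arrays were close to one another. Correlations over kept probe sets, those with a mean log2 value of at least 4 over the 6 arrays, ran from 0.99625 to 0.99828 within a group and from 0.99387 to 0.99729 across groups. On the first principal component anti-miR-21 replicate 1 lay at 3.51, nearer to the mock arrays (-19.95 to -7.25) than replicates 2 and 3 at 20.11 and 19.63. Among markers fixed for the check of the label, 4 of 5 mesenchymal genes were kept, with vimentin (VIM) at 15.70 in mock, while the collagen gene COL1A2 was at 2.51, below the filter. Of the hepatocyte markers 2 of 7 were kept, SERPINA1 (alpha-1-antitrypsin) at 11.87 in mock and TF (transferrin) at 4.01, while ALB (albumin), APOA1, TTR, APOB and FGB were below the filter, at 2.15 to 2.82. Of the endothelial markers 1 of 6 was kept (TEK), and of the leukocyte markers 1 of the 3 with a probe set (CD14). Adjusted p values of the kept markers ran from 0.359 to 0.888 (limma, Benjamini-Hochberg).

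Of the 25 member probe sets, 18 were kept and 7 lay below the filter, and all 10 genes had at least 1 kept probe set. The kept member nearest to the filter had a mean of 4.69 and the nearest one below it 3.32. In limma, with p values adjusted over all 22408 kept probe sets and a threshold of 0.05, 4 member probe sets were called, 2 higher and 2 lower with anti-miR-21. On the whole array 2.17% of kept probe sets were called, 1.10% higher and 1.07% lower. All 4 belonged to DENND5A and DENND5B, the subfamily of RAB39 exchange factors, and none to the other 8 genes. The median log2 fold change, anti-miR-21 minus mock, was -0.039 over the 18 kept members and -0.003 over all kept probe sets. Because the list was chosen knowing this contrast, nothing is read from these shares. In bulk RNA, a transcript carried by fewer cells and less of it per cell cannot be told apart.

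**Figure D1:**
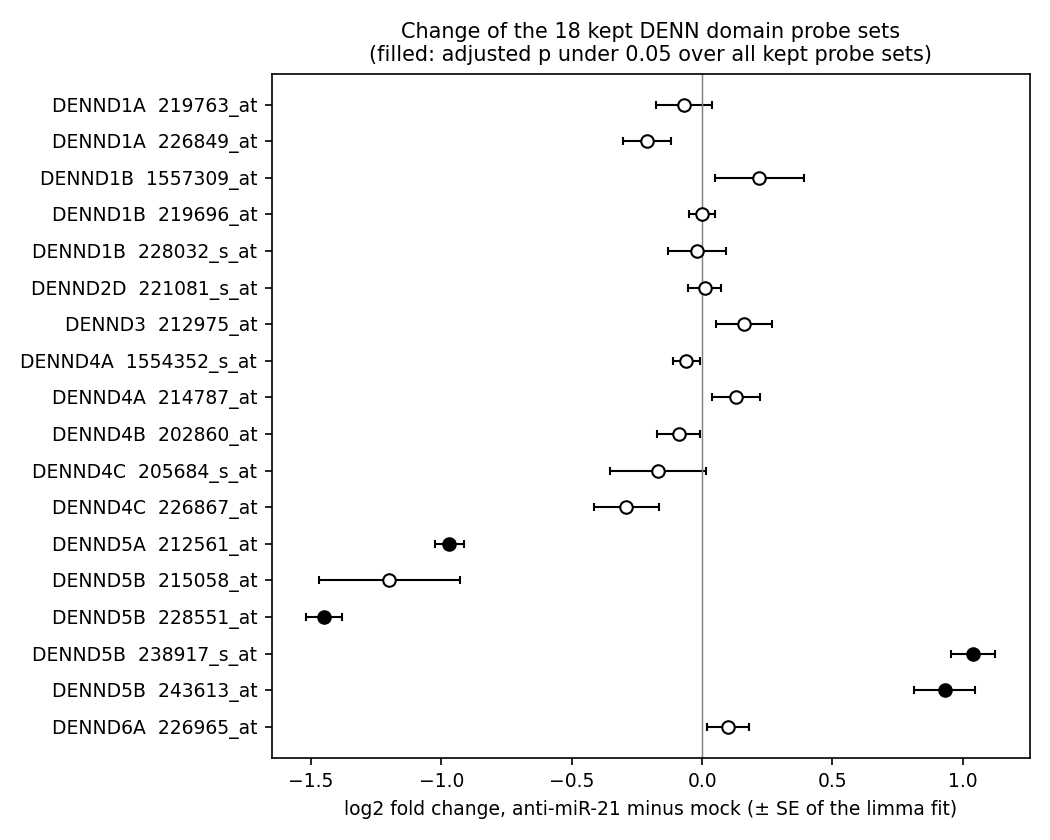
Log2 fold change of anti-miR-21 over mock with its standard error in the limma fit, on the horizontal axis, for each of the 18 kept member probe sets, with filled points for those called over the whole array. The called points are DENND5A at -0.97 and DENND5B at -1.45, 1.04 and 0.93, and the 13 kept probe sets of the other genes lie between -0.29 and 0.22.

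DENND5A, also known as a binding partner of RAB6 at the Golgi and mutated in a developmental epileptic encephalopathy, had a single probe set (212561_at). Its log2 expression was 11.00, 10.99 and 11.11 in mock replicates 1 to 3 and 10.06, 10.03 and 10.10 in the anti-miR-21 replicates. All anti-miR-21 arrays lay below all mock arrays, with a gap of 0.89 between the nearest arrays, whereas the SD within groups was 0.07 and 0.04 (n = 3). The log2 fold change was -0.97 ± 0.0549 (SE), a 1.96-fold lower value, and ranked 27 among the falls of all kept probe sets. The change was of like size in each treated array, at -0.97, -1.01 and -0.93 from the mock mean, also in anti-miR-21 replicate 1. Leaving out each array in turn gave log2 fold changes of -0.99 to -0.93, and the probe set was called each time.

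DENND5B, the paralog of DENND5A known for a role in the secretion of lipoprotein particles by enterocytes, had 5 probe sets, which did not move together. Of these, 4 were kept: 228551_at and 215058_at were lower with anti-miR-21, and 238917_s_at and 243613_at were higher. Arrays of the 2 groups did not overlap for any of the 4, while 24.0% of all kept probe sets had non-overlapping arrays, 11.4% higher and 12.6% lower.

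The first of the lower pair, 228551_at, had log2 values of 9.65, 9.50 and 9.41 in mock and 8.08, 8.06 and 8.07 with anti-miR-21. The treated arrays lay within 0.02 of each other and 1.33 below the lowest mock array. The log2 fold change of -1.45 ± 0.0682 (SE), 2.73-fold lower, ranked 5 among all falls. For 215058_at the values were 8.43, 7.71 and 7.54 in mock and 6.27, 6.94 and 6.86 with anti-miR-21. Here the replicates were spread more widely, with SDs of 0.47 and 0.37 (n = 3), mock replicate 1 being the highest and anti-miR-21 replicate 1 the lowest array. Its log2 fold change was -1.20 ± 0.27 (SE), and it was not called over the whole array in spite of a gap of 0.60 between groups.

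In the higher pair, 238917_s_at had log2 values of 8.93, 8.91 and 8.72 in mock and 9.80, 10.02 and 9.85 with anti-miR-21. The lowest treated array was 0.87 above the highest mock array. The log2 fold change was 1.04 ± 0.0848 (SE), a 2.05-fold higher value that ranked 57 among all rises. By the array maker's naming, the suffix _s_at marks a probe set whose probes match more than 1 transcript. The other, 243613_at, had values of 6.90, 6.53 and 6.52 in mock and 7.48, 7.55 and 7.70 with anti-miR-21, again without overlap. Its log2 fold change was 0.93 ± 0.116 (SE), 1.90-fold higher. Its call was lost when mock replicate 2 or 3 was left out (log2 fold changes of 0.87 and 0.86), and when replicate 2 or 3 of the treated arrays was (0.94 and 0.86). The fifth probe set, 236415_at, read 2.15 to 2.23 in mock and 2.19 to 2.25 with anti-miR-21, near the floor of the values, and was not tested.

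**Figure D2:**
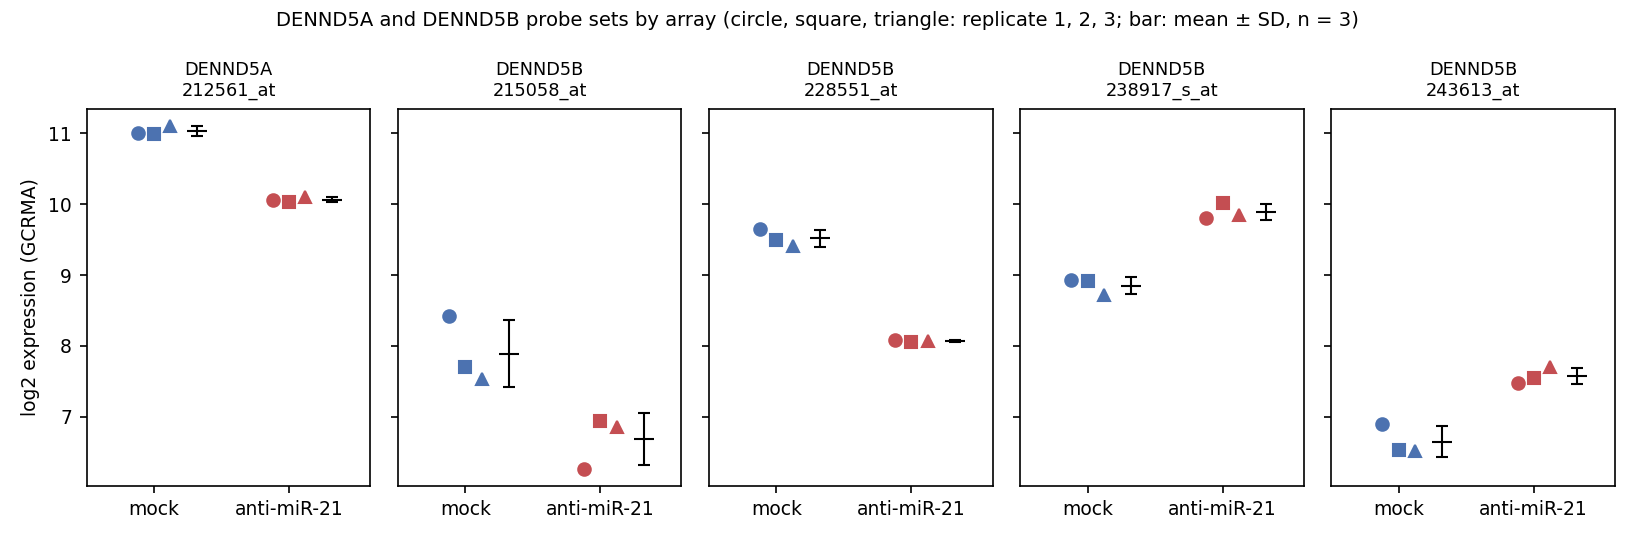
Log2 expression (GCRMA, vertical axis) of the DENND5A probe set and the 4 kept DENND5B probe sets in each array, with circles, squares and triangles for replicates 1, 2 and 3 and bars for the mean ± SD (n = 3). The groups do not overlap in any panel: DENND5A 212561_at and DENND5B 215058_at and 228551_at are lower with anti-miR-21, and DENND5B 238917_s_at and 243613_at are higher.

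Each higher probe set of DENND5B was set against a lower one, array by array. The pairs were picked by the direction of their change, so a shift between groups follows from that choice. The difference 238917_s_at minus 228551_at was -0.71, -0.60 and -0.69 in the mock arrays and 1.72, 1.96 and 1.78 in the anti-miR-21 arrays. For 243613_at minus 215058_at it was -1.53, -1.18 and -1.02 in mock and 1.22, 0.61 and 0.84 with anti-miR-21. Signals of different probe sets are not on a common scale, so only the shift of these differences between groups can be read, not their sign. With the 4 probe sets averaged before the fit, DENND5B had a log2 fold change of -0.17 ± 0.117 (SE) and was not called. Over the whole array, 10 of 5285 genes with at least 2 kept probe sets (0.189%) had probe sets called in both directions, DENND5B among them. The annotation used here does not say which transcripts or parts of the gene each probe set covers, so the probe sets cannot be assigned to isoforms. The RefSeq table also lists an antisense gene at the locus, DENND5B-AS1, for which the annotation used here holds 0 single-gene probe sets. Whether any DENND5B probe set picks up its transcript was not tested.

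The 3 genes most like DENND5B 238917_s_at among 10847 genes, by root mean square distance between profiles centred on their mean over the 6 arrays, were FAM3C (0.071), THRB (0.0905) and KLHL15 (0.105). FAM3C encodes a secreted protein, THRB a thyroid hormone receptor and KLHL15 an adaptor of cullin 3 ubiquitin ligases, and their log2 fold changes were 0.92, 1.08 and 1.10. The 3 most like DENND5B 228551_at were CCNH (0.11), EFCAB7 (0.121) and LINC01139 (0.198), namely the cyclin partner of CDK7, a ciliary protein and a long noncoding RNA, with log2 fold changes of -1.46, -1.43 and -1.19. These distances describe 6 arrays in 2 groups, so they mostly follow the size of the group difference.

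The exchange factors for RAB35 were measured by 5 kept probe sets. DENND1A, which binds clathrin and the AP-2 adaptor at endocytic sites, had values of 8.75, 8.90 and 9.12 in mock and 8.93, 8.72 and 8.90 with anti-miR-21 on 219763_at. The groups overlapped there, and the log2 fold change was -0.07 ± 0.107 (SE). On its dimmer probe set, 226849_at, mock arrays read 6.34, 6.62 and 6.41 and anti-miR-21 arrays 6.15, 6.37 and 6.23, which overlapped by 0.02, with a log2 fold change of -0.21 ± 0.092 (SE). DENND1B, known for the down-modulation of the T cell receptor in helper T cells, had 6 probe sets, of which 3 were kept. Its brightest, 219696_at, read 9.22, 9.22 and 9.16 in mock and 9.24, 9.17 and 9.19 with anti-miR-21, a difference of 0.00 ± 0.0487 (SE). On 228032_s_at the values were 6.85, 6.51 and 6.41 in mock and 6.56, 6.58 and 6.57 with anti-miR-21, and on 1557309_at 4.70, 4.64 and 4.39 against 4.58, 5.19 and 4.64. Both overlapped between groups, with log2 fold changes of -0.02 ± 0.111 and 0.22 ± 0.171 (SE), and the latter had 1 high array, anti-miR-21 replicate 2.

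DENND2D, an exchange factor for RAB9, which acts between late endosomes and the trans-Golgi network, had a kept probe set (221081_s_at) at 8.60, 8.76 and 8.76 in mock and 8.77, 8.70 and 8.68 with anti-miR-21. The log2 fold change was 0.01 ± 0.0645 (SE). DENND3, an exchange factor for RAB12 linked to autophagy, had values of 6.47, 6.52 and 6.86 in mock and 6.86, 6.72 and 6.75 with anti-miR-21 on 212975_at. The treated arrays lay within the mock range or at its upper end, with a log2 fold change of 0.16 ± 0.108 (SE).

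The RAB10 exchange factors of the DENND4 group gave differences of both signs, and no probe set was called. DENND4A, first described as a protein binding a MYC promoter element, had 1554352_s_at at 8.06, 8.02 and 7.94 in mock and 7.97, 7.94 and 7.93 with anti-miR-21. Its other probe set, 214787_at, read 5.57, 5.48 and 5.25 against 5.48, 5.57 and 5.65. The log2 fold changes were -0.06 ± 0.0521 and 0.13 ± 0.0922 (SE), with overlap in both. DENND4B had a single probe set (202860_at), with values of 9.69, 9.61 and 9.88 in mock and 9.55, 9.71 and 9.66 with anti-miR-21 and a log2 fold change of -0.09 ± 0.0833 (SE).

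DENND4C, which acts with RAB10 in insulin-stimulated movement of the glucose transporter GLUT4, was the member outside DENND5A and DENND5B with a probe set whose groups did not overlap. On 226867_at mock arrays read 8.98, 8.66 and 8.68 and anti-miR-21 arrays 8.26, 8.59 and 8.61. The gap between groups was 0.05, smaller than the SDs of 0.18 and 0.20 (n = 3), and the log2 fold change was -0.29 ± 0.126 (SE). On 205684_s_at the values were 8.00, 7.53 and 7.28 in mock and 7.27, 7.62 and 7.42 with anti-miR-21, with overlap and a log2 fold change of -0.17 ± 0.185 (SE). DENND6A, the RAB14 exchange factor known for recycling of ADAM10 and N-cadherin, had a single probe set (226965_at) at 11.00, 10.88 and 10.72 in mock and 10.92, 11.02 and 10.97 with anti-miR-21. Its log2 fold change was 0.10 ± 0.0796 (SE).

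**Figure D3:**
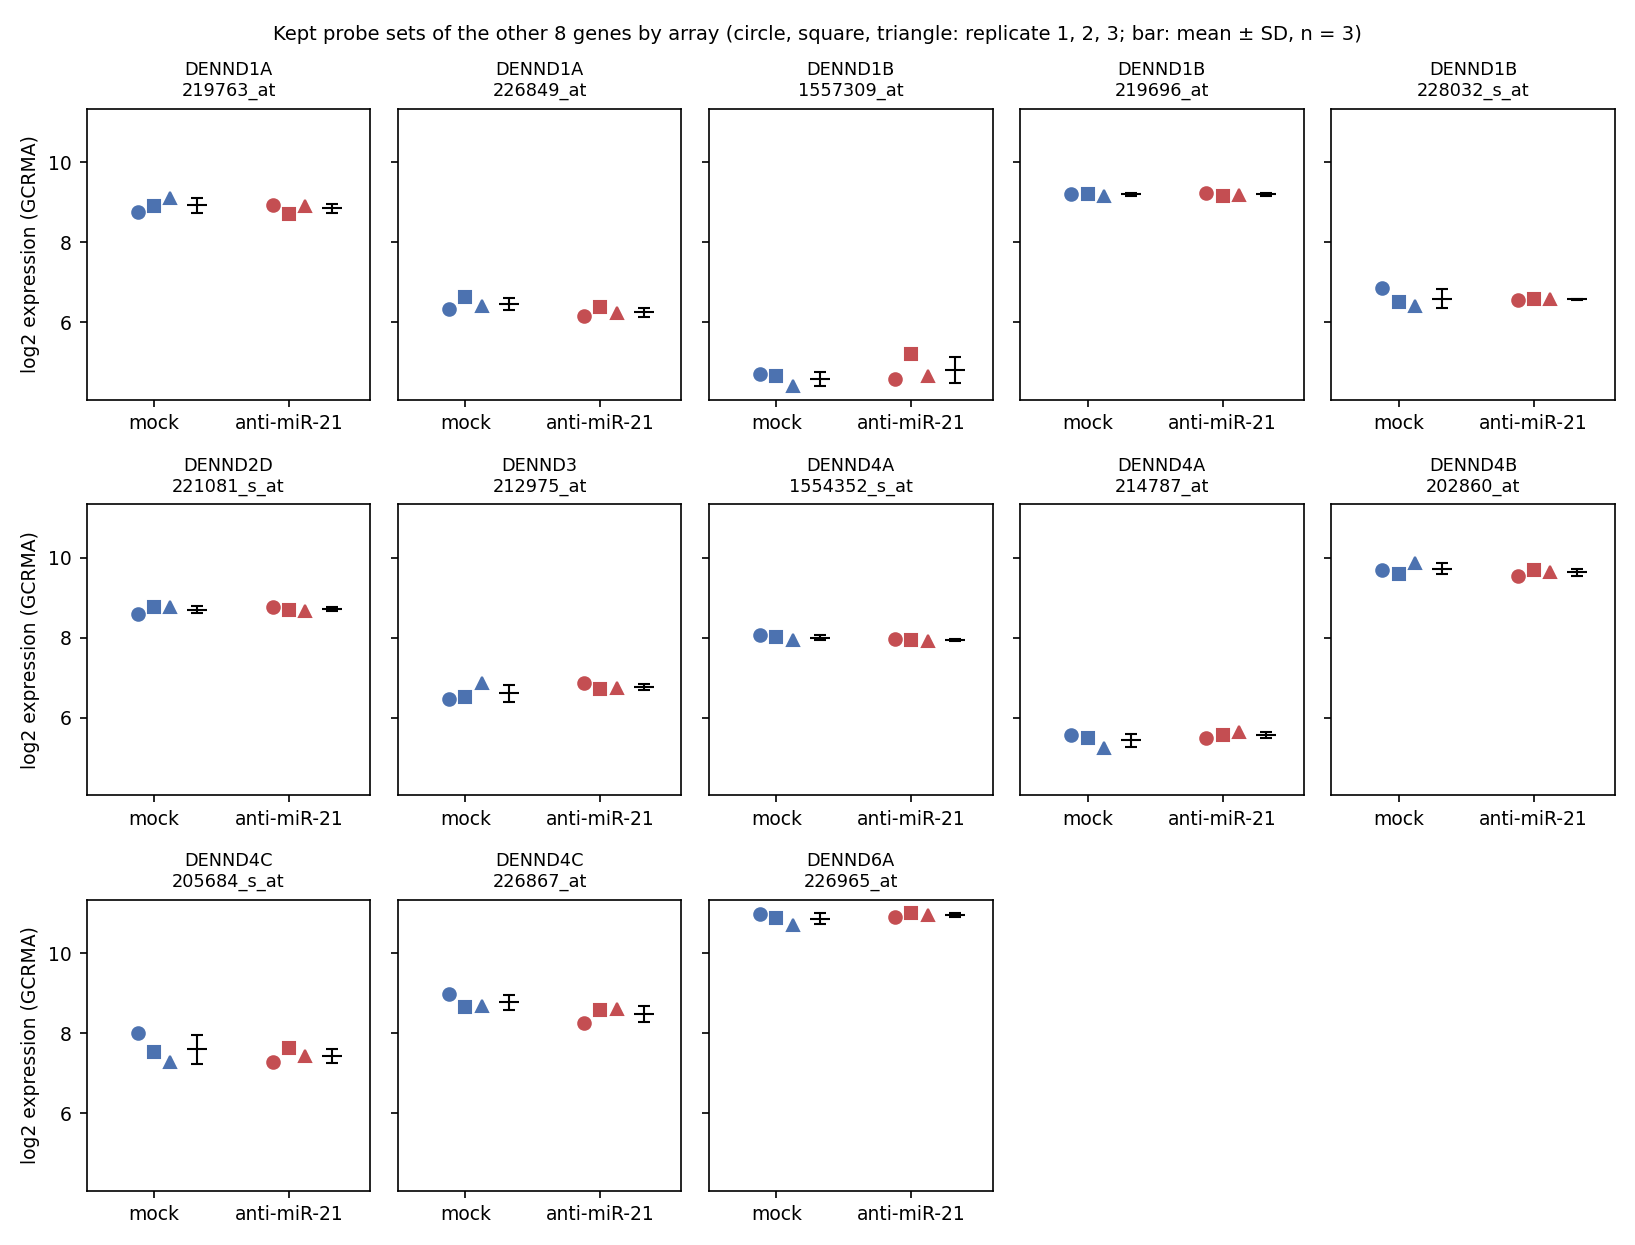
Log2 expression (GCRMA, vertical axis) of the 13 kept probe sets of the other 8 genes in each array, with circles, squares and triangles for replicates 1, 2 and 3 and bars for the mean ± SD (n = 3). Groups overlap in every panel except DENND4C 226867_at, where the nearest arrays are 0.05 apart.

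Over these 13 probe sets the median absolute log2 fold change was 0.10, and over all kept probe sets 0.08. These small differences do not show that the 8 genes were unaffected, since the SE of single probe sets reached 0.185. The 7 member probe sets below the filter were 3 of DENND1B and 1 each of DENND2D, DENND3, DENND4C and DENND5B, with values of 2.15 to 3.71 and differences of -0.20 to 0.20 between groups. They were not tested, and they lie where GCRMA compresses dim signals. Within-group SDs of the kept members had a median of 0.16 in mock (0.04 to 0.47) and of 0.08 with anti-miR-21 (0.01 to 0.37).

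DENN or longin-DENN proteins outside the 10 members were tested as the wider fold family. Of 18 such genes, 16 were kept, and none was called in either direction on its representative probe set, the kept one with the highest mean (limma, 3 at an unadjusted p under 0.05). Over all genes 2.13% were called, 0.913% higher and 1.22% lower, and 18.1% had an unadjusted p under 0.05. The list's median log2 fold change was -0.022 and that of all 10848 genes -0.018. FNIP2, a partner of folliculin in nutrient signalling at the lysosome, had values of 9.19, 9.22 and 9.07 in mock and 9.34, 9.55 and 9.57 with anti-miR-21, without overlap. On this probe set the change was 0.33 ± 0.0785 on the log2 scale (SE, limma adjusted p = 0.097), its other probe sets gave 0.23 and 0.36, and it was called with replicate 1 of the treated arrays left out (log2 fold change 0.40). C9orf72, which forms a complex with SMCR8 that acts on small GTPases, differed by -0.32 ± 0.087 on the log2 scale (SE, limma adjusted p = 0.125). The kept DENND genes of this list are given outside the naming rule, as the nearest relatives of the members: DENND2C had -0.23 (limma adjusted p = 0.22), DENND2A -0.06, DENND2B -0.04, DENND6B 0.04 and DENND11 0.08.

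The Rab GTPases on which DENN proteins act showed no call on a representative probe set among 15 kept genes of 17, against 2.13% of all genes. An unadjusted p under 0.05 (limma) was found for 1, against 18.1% of all genes. The median was -0.053. RAB39A and RAB39B, the Rabs of DENND5, were both below the filter and not tested: RAB39A read 3.46 to 3.81 in mock and 3.76 to 3.82 with anti-miR-21, and the brighter probe set of RAB39B (230075_at) 3.08 to 3.19 and 3.09 to 3.25. The other Rabs of the members are also given outside the rule: RAB35 had a log2 fold change of 0.02, RAB9A -0.02, RAB12 0.12, RAB10 -0.11 and RAB14 -0.12 on their representatives, with SEs of 0.0555 to 0.0745. RAB3B, a Rab of regulated secretion, had 0.13 ± 0.0567 (SE, limma adjusted p = 0.3).

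RAB21, an early endosomal Rab that regulates integrin traffic and is a substrate of the DENN protein SBF2, had probe sets of opposite sign. Its representative 203885_at read 11.52, 11.54 and 11.56 in mock and 11.40, 11.30 and 11.41 with anti-miR-21, which differed by -0.17 ± 0.0532 (SE, limma adjusted p = 0.166). A dimmer probe set, 239329_at, read 7.38, 7.24 and 7.12 in mock and 8.00, 7.84 and 8.02 with anti-miR-21. It rose by 0.71 ± 0.0854 (SE, limma adjusted p = 0.0149), a call lost when mock replicate 2 (0.70) or treated replicate 3 (0.67) was left out. The third probe set, 226268_at, had 0.49 (limma adjusted p = 0.0888). Groups did not overlap on any of the 3, while 24.0% of all kept probe sets had non-overlapping arrays. The probe set 239329_at is named because it was the 1 called among 33 kept probe sets of this list, a choice made after its values were seen. Over the whole array 2.17% of kept probe sets were called. The count in this list is near that share, so nothing is read from it about these Rabs.

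Among effectors, kinases, coats and GTPase-activating proteins of these Rabs, none of 30 kept genes of 34 was called on its representative, against 2.13% of all genes. An unadjusted p under 0.05 (limma) was found for 4, against 18.1% of all genes. TBC1D4, a GTPase-activating protein for RAB10 in glucose transporter traffic and so opposed to DENND4C in that step, differed by 0.32 ± 0.0832 (SE, limma adjusted p = 0.113). Its second probe set, 203387_s_at, was the 1 called among 56 and was also singled out after its values were seen. That count is near the 2.17% of all kept probe sets called, so nothing is read from it about the list. The probe set read 8.88, 8.83 and 8.90 in mock and 9.19, 9.24 and 9.21 with anti-miR-21, a rise of 0.34 ± 0.0486 (SE, limma adjusted p = 0.0228). That call was lost when mock replicate 2 or 3 (0.32 and 0.36) or treated replicate 2 or 3 (0.33 and 0.35) was left out. TBC1D24, a TBC domain protein mutated in epilepsies, had -0.26 ± 0.0779 (SE, limma adjusted p = 0.158). The list's median was 0.010.

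Exchange factors of other families and the proteins that prenylate or extract Rabs gave no call, while 2.13% of all genes were called. In all genes 18.1% had an unadjusted p under 0.05 (limma). At that share a list of this size can hold no call, so its absence does not show that these genes were unaffected. Of 25 kept exchange factors of 28, 1 had an unadjusted p under 0.05 and the median was -0.033 (limma). RIN1, a RAB5 exchange factor downstream of RAS, differed by -0.20 ± 0.0499 (SE, limma adjusted p = 0.112), and RIC1, part of a RAB6 exchange factor, -0.22 ± 0.091 (SE, limma adjusted p = 0.284). Of 6 kept prenylation and extraction genes of 8, 1 had an unadjusted p under 0.05 and the median was 0.014. RABGGTA, a subunit of the Rab prenyltransferase, had 0.24 ± 0.0905, and CHML, a Rab escort protein, 0.17 ± 0.0769 (SE, limma adjusted p = 0.239 and 0.305).

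**Figure D4:**
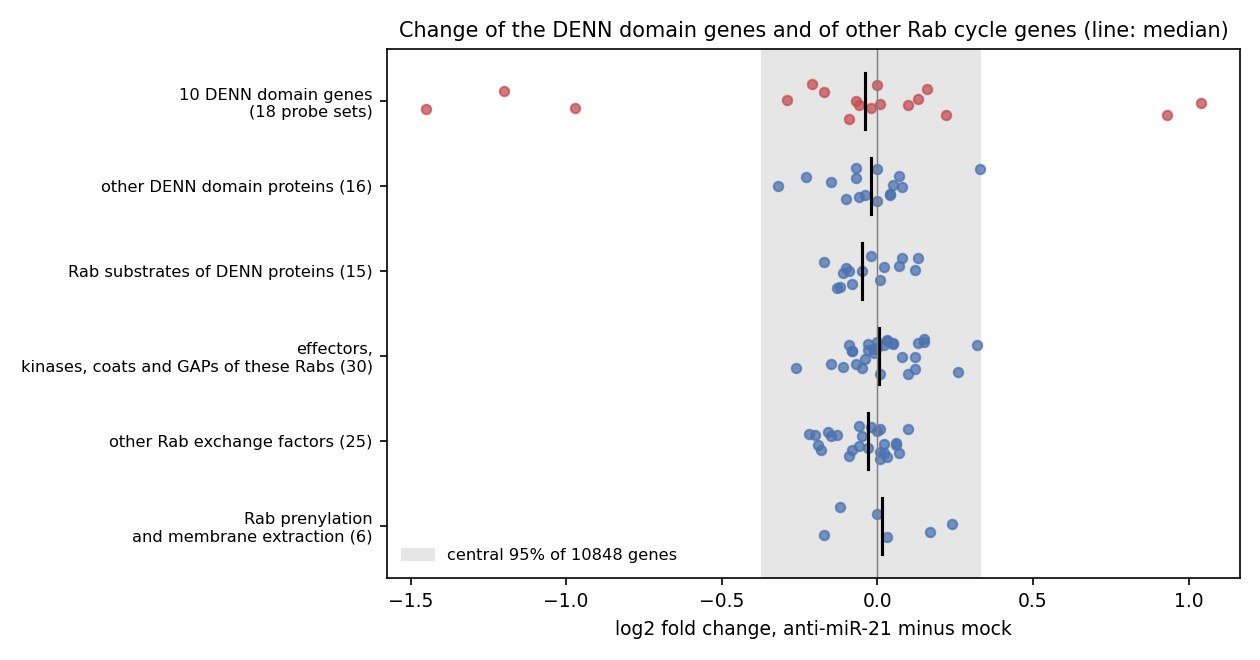
Log2 fold change (anti-miR-21 minus mock, horizontal axis) of the 18 kept probe sets of the 10 DENN domain genes and of the representative probe sets of the genes in each of the 5 other lists, with a line at each median and grey for the central 95% of 10848 genes (-0.37 to 0.33). The 5 points of DENND5A and DENND5B lie outside the grey band, and the representatives of the other lists span -0.32 to 0.33. Probe sets that are not representatives are drawn for the members only. In the other lists some of these also lie outside the band, such as RAB21 239329_at (0.71) and 226268_at (0.49).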

How the data were processed

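RNA of 3 mock and 3 anti-miR-21 samples was hybridised to single-colour arrays of 54675 probe sets. The deposited log2 values were made by the authors with GCRMA, per the submitters' processing notes, which name no version or settings. They were used without further normalization, and no scanner file was used, so background correction could not be varied. The 62 control probe sets were left out, and probe sets with a mean of at least 4 over the 6 arrays (22408) were kept. The 2 groups were compared in R 4.3.3 by limma 3.58.1, using lmFit and eBayes without covariates; p values are two-sided and were adjusted by Benjamini-Hochberg over all kept probe sets. Fits were tested on simulated data. Genes were named from the platform annotation through Entrez identifiers and a RefSeq table (GRCh38.p14). Probe sets listing several genes were not assigned to a gene. Those that passed the filter stayed among the kept probe sets and in the adjustment of p values. Apart from those of the mature miR-21 strand, no coordinates are given, since the arrays name no build.

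The members and the gene lists were chosen with earlier results of these data known. Named were all member probe sets, called genes of each other list or else its 2 smallest p, and the 3 nearest profiles to the largest called rise and fall. Alternatives were the filter, centring, quantile normalization, trend and robust eBayes, averaging, a replicate block and each array left out. The number of arrays limits precision. Same-numbered arrays' deviations from their group means correlated at -0.361, -0.266 and -0.002, which shows no sign of pairing by replicate number. With 3 arrays per group these values cannot exclude it.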

Additional observations from a re-analysis of the deposited data

How the results depend on the processing

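The 18 kept member probe sets kept the same call in all but 5 of their refits, and these 5 were the lost calls of DENND5B 243613_at: with the replicate block (log2 fold change 0.93) and without each of 4 arrays named above (0.86 to 0.94). DENND5A 212561_at and DENND5B 228551_at and 238917_s_at were called under each alternative run, and 215058_at under none. The count of member probe sets called was 4 under each change of filter, centring, normalization and prior, 3 with the replicate block, and 3 to 4 with each array left out. With probe sets of 1 gene averaged, the count of member genes called went from 2 to 1, DENND5B being lost. Over all kept probe sets the count of calls was 486, 91 with the replicate block and 96 to 572 with 1 array left out (97 and 185 when it was mock replicate 2 or 3, 106 and 96 when it was replicate 2 or 3 of the treated arrays). It was 339 with no filter and 628 with the filter at 6. The called probe sets of RAB21 (0.71) and TBC1D4 (0.34) also lost their calls with the block. Whether replicate numbers pair the samples was not settled, so nothing is read from a call lost with the block. Among the other DENN domain proteins the count of genes called was 0 to 1 with each array left out, FNIP2 being called without anti-miR-21 replicate 1; in the other 4 lists it was 0 under each alternative. Dim probe sets carry little signal above the floor, which limits what they can show.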

Other observations

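The protein-coding neighbours of DENND5A and DENND5B in the order of the RefSeq table were looked at after the values of both genes had been seen. TMEM41B, an endoplasmic reticulum lipid scramblase that lies beside DENND5A, differed by -0.23 ± 0.0775 on the log2 scale (SE, limma adjusted p = 0.199) on its representative probe set. SCUBE2, on the other side, had no kept probe set. Beside DENND5B, SINHCAF, a subunit of the SIN3 histone deacetylase complex, was at 11.65 ± 0.07 in mock and 11.65 ± 0.04 with anti-miR-21 (SD, n = 3, limma adjusted p = 0.993). ETFBKMT, a mitochondrial lysine methyltransferase, was dim, at 4.62 ± 0.39 and 4.38 ± 0.02 (SD, n = 3, limma adjusted p = 0.525).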
